A study of Homo sapiens with 6 samples.

Results

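The protocadherin genes were taken as every row of the expression table whose gene symbol starts with PCDH, which gave 73 of 26364 rows. On chromosome 5, 15 belong to the α cluster (PCDHA), 19 to the β cluster (PCDHB) and 23 to the γ cluster (PCDHG). A further 13 are non-clustered protocadherin genes, and 3 are antisense transcripts of PCDH9. RNAseq was performed on A673/TR/shEF cells, a derivative of the Ewing sarcoma line A673 in which doxycycline induces an shRNA against the chimeric EWSR1::FLI1 mRNA. The EWSR1::FLI1high group consisted of 3 libraries from untreated cells, and the EWSR1::FLI1low group of 3 libraries from cells given 1 µg/mL doxycycline for 72 h. All 6 libraries therefore came from cells that carry the shRNA construct, and they were made from total RNA after depletion of ribosomal RNA. Since no doxycycline-treated cells without the shRNA are among the samples, an effect of doxycycline itself cannot be told apart from that of the knockdown. The labels number the 3 libraries of a group as experiments, whereas the description of the design speaks of clones, and p-values measure only the spread between these libraries. The comparison asks how the protocadherin repertoire of one Ewing sarcoma line differed upon EWSR1::FLI1 knockdown.

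Protocadherins are the largest group of the cadherin superfamily of calcium-dependent adhesion proteins, and they are best known from the nervous system. In the clusters, each variable exon has a promoter of its own. The variable exons of the α and γ clusters are spliced to constant exons that encode a common cytoplasmic tail, whereas the β genes have single coding exons and no common tail. In neurons, promoter choice gives single cells different combinations of isoforms, which recognise each other by homophilic binding. Promoter choice involves CTCF, cohesin and DNA methylation, while the C-type isoforms (PCDHAC1, PCDHAC2, PCDHGC3, PCDHGC4 and PCDHGC5) are used more uniformly. The non-clustered genes are scattered over the genome, and most of them belong to the δ protocadherins, whose cytoplasmic tails contact phosphatases and regulators of the actin cytoskeleton.

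Since the promoters of a cluster resemble each other and the members of a cluster reached very different levels, stretches of 60 bases before the start of several members are shown. RefSeq promoter sequences (assembly GRCh38.p14, from 250 bases before to 50 bases after the gene start) were matched by symbol for 60 of the 73 members, and each printed stretch was placed on GRCh37 by an exact and unique match. Capitals mark short motifs that were chosen after looking at the sequences and searched on both strands. For the β cluster, the motif TGGCGCT was present in 13 of 14 promoters, against 4.08% of all 35116 promoters in the RefSeq table. It is shown for PCDHB2 (chr5:140474115-140474174, plus strand), PCDHB5 (chr5:140514728-140514787, plus strand), PCDHB16 (chr5:140561871-140561930, plus strand) and PCDHB14 (chr5:140602821-140602880, plus strand), of which PCDHB2 and PCDHB5 had the highest mean levels of the cluster. PCDHB1 (chr5:140430899-140430958, plus strand) was the β promoter without a match. Its stretch holds the letters TGGTGCT, which differ from the motif by C4T, counted from the first base of the motif.
PCDHB2: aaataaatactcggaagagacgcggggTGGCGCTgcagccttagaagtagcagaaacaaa
PCDHB5: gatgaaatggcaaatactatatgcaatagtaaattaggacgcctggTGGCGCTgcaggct
PCDHB16: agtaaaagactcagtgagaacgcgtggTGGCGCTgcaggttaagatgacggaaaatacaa
PCDHB14: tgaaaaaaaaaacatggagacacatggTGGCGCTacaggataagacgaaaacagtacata
PCDHB1: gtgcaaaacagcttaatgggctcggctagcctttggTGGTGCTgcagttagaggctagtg

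In the α cluster, TGTCGCT was found in 10 of 13 promoters and in 1.76% of all promoters. It is shown for PCDHA6 (chr5:140207468-140207527, plus strand) and PCDHA10 (chr5:140235408-140235467, plus strand), members of the leading trio of that cluster. In the γ cluster, CGCTGTT was found in 13 of 20 promoters and in 2.26% of all promoters, while its shorter form CGCTGT was found in 17 of 20 and in 11.2% of all promoters. The shorter form was also found in 7 of 13 α and 1 of 14 β promoters. Conversely, TGTCGCT and TGGCGCT were each found in 3 of 20 γ promoters. The γ motif begins with CGCT, the letters that end the α and β motifs, so that these motifs can overlap in 1 promoter. It is shown for PCDHGA7 (chr5:140762205-140762264, plus strand) and, in the shorter form, for PCDHGC3 (chr5:140855436-140855495, plus strand), a pair of γ members with non-overlapping groups.
PCDHA6: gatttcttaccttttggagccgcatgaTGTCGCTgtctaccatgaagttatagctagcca
PCDHA10: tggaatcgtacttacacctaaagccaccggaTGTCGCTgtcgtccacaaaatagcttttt
PCDHGA7: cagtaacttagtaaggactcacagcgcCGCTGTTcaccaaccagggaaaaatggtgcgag
PCDHGC3: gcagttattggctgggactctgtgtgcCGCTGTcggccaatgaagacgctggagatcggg

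These motifs had similar median distances from the gene start, but single promoters varied. Where the motif lies on the coding strand, the medians were 54.5 bases before it for α, 64 for β and 48 for γ. The ranges were 41 to 84 bases in the 10 α, 0 to 82 in the 13 β and 39 to 199 in the 13 γ promoters. Levels nevertheless varied widely among members that share a motif. Mean FPKM over the 6 libraries (fragments per kilobase of gene, scaled between libraries, the unit of the deposited values) ranged from 0.603 to 20.1 among the 13 β members with TGGCGCT and, with TGTCGCT, from 0.161 to 5.33 among the 10 α members. GGAA repeats are the DNA elements that EWSR1::FLI1 is known to bind. The letters GGAAGGAA were found in 3.67% of all promoters and in those of PCDHA2, PCDHA4, PCDHGC3, PCDH11X, PCDH11Y and PCDH18. These were 2 of 13 α, 0 of 14 β, 1 of 20 γ and 3 of 11 non-clustered promoters. Such stretches are shown for PCDHGC3 (chr5:140855329-140855388, plus strand) and PCDH18 (chr4:138453839-138453898, minus strand), which had higher values in every EWSR1::FLI1low library. PCDH11X, which holds the same letters and is not printed, had lower values in every EWSR1::FLI1low library. PCDHA2 and PCDHA4, with means of 0.214 and 0.161 FPKM over the 6 libraries, had overlapping groups. Binding of any factor was not measured.
PCDHGC3: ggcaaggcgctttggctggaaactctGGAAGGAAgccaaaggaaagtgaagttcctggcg
PCDH18: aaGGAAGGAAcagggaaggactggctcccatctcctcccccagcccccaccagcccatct

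The targeted mRNA was followed through FLI1, which gives the 3' part of the chimera. FLI1 was at 11.3, 12.7 and 14.2 FPKM in EWSR1::FLI1high replicates 1, 2 and 3, compared with 2.91, 4.29 and 3.68 FPKM in EWSR1::FLI1low replicates 1, 2 and 3 (log2 fold change of -1.57, SE 0.18, adjusted p = 0.000676). The libraries held between 6980361 and 16658933 reads on genes. EWSR1::FLI1low replicate 1 stood apart from the other libraries in its weakly expressed genes: among genes with a mean under 1 FPKM, the median was 0.471 FPKM in this library and 0.202 to 0.300 FPKM in the other 5. Summed FPKM of 7 Ewing sarcoma markers was 525 to 535 in EWSR1::FLI1high and 155 to 181 in EWSR1::FLI1low libraries. Of these markers 5 passed the test as lower, as did 522 of all 15504 genes tested. Of 9 markers of leukocytes, epithelium, endothelium and muscle, 2 reached the level to be tested. Their summed FPKM was 1.88 to 3.23 in EWSR1::FLI1high and 3.17 to 4.94 in EWSR1::FLI1low, the highest single value being 1.56 FPKM for the endothelial marker PECAM1. In bulk RNA, fewer cells that express a gene and less RNA of it per cell cannot be told apart.

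Protocadherin expression spanned a wide range. PCDH7 had the highest mean of all members (50.9 FPKM over the 6 libraries), followed by non-clustered PCDH18 and by PCDHB2 and PCDHB5 of the β cluster, and these 4 were the members at 10 FPKM or more. In the clusters, a mean of at least 2 FPKM was reached by 3 of 15 α, 7 of 19 β and 5 of 23 γ members. A mean of at least 0.5 FPKM, required for testing, was reached by 55 members: 8 α, 18 β, 18 γ and 11 non-clustered genes. The 18 that were not tested were 7 α members, PCDHB1, 5 γ members (PCDHGA2, PCDHGA3, PCDHGA5, PCDHGC4 and PCDHGC5), PCDH8, PCDH11Y and the 3 antisense transcripts. Another 6 members, PCDH1 and PCDH19 among them, passed only because of EWSR1::FLI1low libraries, since their EWSR1::FLI1high means were under 0.5 FPKM.

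No member passed the limit of the study (adjusted p under 0.01) with limma on log2(FPKM + 1), while 1222 of 15504 genes tested did (7.88%). At an unadjusted p under 0.05 there were 12 members of 55 (21.8%), fewer than the 34.3% of all genes at this limit. At an adjusted p under 0.05, PCDH1, PCDH9, PCDH18, PCDHB2 and PCDHGC3 were higher in EWSR1::FLI1low cells, 9.09% of the tested members against 9.87% of all genes. PCDH11X was lower at the same limit, 1.82% of the members against 9.91% of all genes. With limma-voom on the recovered read counts, 1 member passed an adjusted p of 0.01 as higher (PCDH1, with 6.1% of all genes) and 1 as lower (PCDH11X, with 5.06% of all genes). In a limma fit with the library number as a block, 1 member passed this limit, as lower (PCDH11X, adjusted p = 0.0052). At that setting, 786 of 15504 genes passed as lower. Each of the 6 members at an adjusted p under 0.05 had a higher adjusted p in some fits without 1 library, and the call at this limit was lost in 5 of 6 such fits for PCDH9, PCDHB2 and PCDHGC3, in 4 for PCDH18, in 3 for PCDH1 and in 2 for PCDH11X. In the fit without a filter, the adjusted p was 0.0887 for PCDH18, 0.0772 for PCDH9, 0.0532 for PCDHB2 and 0.0805 for PCDHGC3. It stayed under 0.05 there for PCDH1 (0.0237) and PCDH11X (0.0342). With quantile normalization it was 0.0781 for PCDH18 and 0.0536 for PCDHGC3, and under 0.05 for the others. PCDH1 passed the filter only through EWSR1::FLI1low libraries, so its call as higher is no independent support for that direction. The share of members called was thus near or below that of all genes in each of these counts.

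The direction of the estimates was less even. In 44 of the 55 tested members (80%) the log2 fold change was above 0, against 45.2% of all genes tested, with a median of 0.19 against -0.05. Over all genes, 13215 of 24488 estimates were above 0 without a filter, 7012 of 15504 with the filter used and 5196 of 12578 at a mean of at least 1 FPKM. Weakly expressed genes thus lay above 0 more often, and 34 of the 55 members had a mean under 2 FPKM. A share of positive estimates matched for level was not computed. The 6 members that passed the filter only through the EWSR1::FLI1low group were all above 0 and were selected for that direction. Without them, 38 of 49 were above 0. In 16 members (29.1%), every EWSR1::FLI1low library lay above every EWSR1::FLI1high library, against 17.5% of all genes. PCDH1 and PCDH19 are among these 16. Both passed the filter only through the EWSR1::FLI1low group and are no independent support for that direction. In 2 members (3.64%), every EWSR1::FLI1low library lay below, against 23.6% of all genes. The positive estimates lay in the clusters, with 6 of 8 α, 16 of 18 β and 17 of 18 γ members above 0, whereas 5 of 11 non-clustered genes were above 0. EWSR1::FLI1low replicate 1 moved with this pattern, being the highest of the 6 libraries for 33 of the 55 members (60%) and for 15.8% of all genes tested. Among members with a mean under 2 FPKM it was the highest library for 26 of 34 (76.5%), and for 39.8% of all genes at that level. Without this library, 39 of 55 members (70.9%) had a positive estimate, against 47.6% of all genes, and the median was 0.06 against -0.03. By class, the estimate was then positive for 5 of 8 α, 16 of 18 β, 13 of 18 γ and 5 of 11 non-clustered members. Members share cells, libraries and, in the clusters, neighbouring promoters, and they are not independent of each other.

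**Figure D1:**
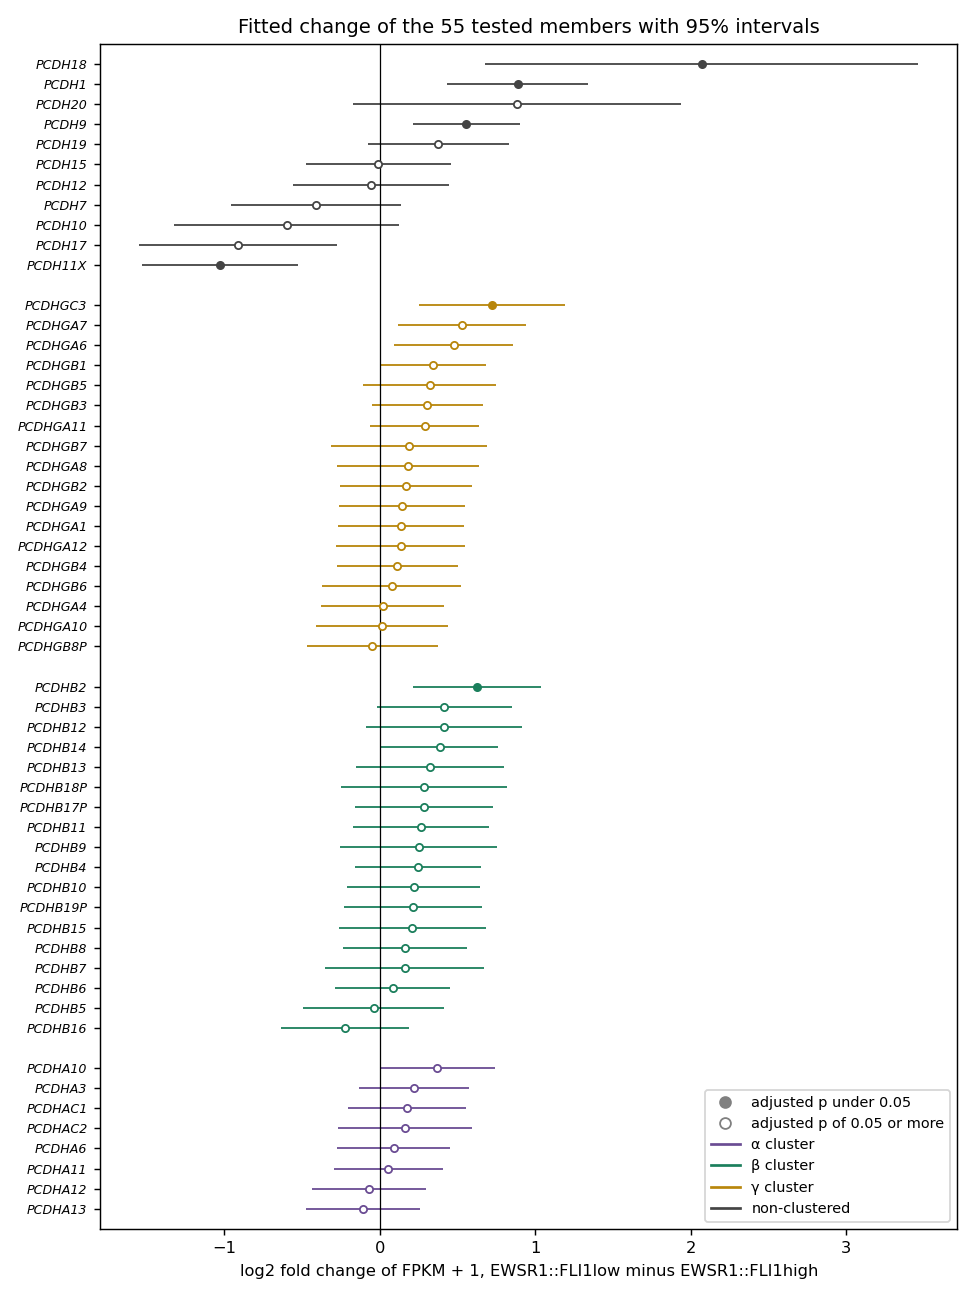
Fitted log2 fold change of FPKM + 1 (EWSR1::FLI1low minus EWSR1::FLI1high, horizontal axis) with its 95% interval for each of the 55 tested members, by class. Filled points have an adjusted p under 0.05: 5 lie above 0 and 1, PCDH11X, lies below 0, and most clustered members sit just to the right of 0 with intervals that include it.

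The δ1 protocadherins showed values in both directions. PCDH11X, a δ1 gene on the X chromosome with a near-identical copy on the Y chromosome, was the member with the lowest p. It was at 7.85, 6.37 and 8.01 FPKM in EWSR1::FLI1high replicates 1, 2 and 3, compared with 4.46, 2.13 and 3.07 FPKM in EWSR1::FLI1low replicates 1, 2 and 3. All 3 EWSR1::FLI1low libraries were below the EWSR1::FLI1high libraries, with a log2 fold change of -1.03 (SE 0.22, 95% interval -1.53 to -0.52) and an adjusted p of 0.0138. The adjusted p was 0.00273 without EWSR1::FLI1low replicate 1, and 0.0524 and 0.0632 without EWSR1::FLI1high replicates 1 and 3. Because reads can be shared with PCDH11Y, which was counted as a member without a printed level, the amount assigned to PCDH11X is uncertain.

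PCDH1, a δ1 protocadherin known from airway epithelium, was close to silent in EWSR1::FLI1high cells. Its level was 0.153, 0.201 and 0.230 FPKM in EWSR1::FLI1high replicates 1, 2 and 3, which rest on 9, 9 and 10 reads. In EWSR1::FLI1low replicates 1, 2 and 3 it was 0.841, 1.87 and 1.04 FPKM, from 42, 86 and 91 reads. The ratio of the group means was 6.42. On the log2(FPKM + 1) scale, where the added 1 compresses differences at such low levels, the difference was 0.89 (SE 0.20, adjusted p = 0.0163), and on the recovered counts it was 2.55 (limma-voom, adjusted p = 0.00191). Since PCDH1 entered these fits only through the group in which it is high, the values are a description. In the fit without a filter its adjusted p was 0.0237.

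PCDH9, also of the δ1 group, had tight replicates. It was at 1.18, 1.19 and 1.39 FPKM in EWSR1::FLI1high and at 2.15, 2.27 and 2.52 FPKM in EWSR1::FLI1low replicates 1, 2 and 3, so that the ratio of the means was 1.85 and the groups did not overlap (log2 fold change of 0.56, SE 0.15, adjusted p = 0.0328). The adjusted p was 0.0224 to 0.132 when 1 library was left out, and was under 0.05 only without EWSR1::FLI1low replicate 1. The 3 antisense transcripts within PCDH9 had 0 to 3 reads per library. The strand setting of the counting is not stated in the sources used here, so reads of PCDH9 and of its antisense partners cannot be told apart.

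PCDH7, whose cytoplasmic tail binds protein phosphatase 1, was the most abundant protocadherin in 5 of the 6 libraries. It was at 61.4, 51.5 and 59.3 FPKM in EWSR1::FLI1high and at 60.3, 32.4 and 40.5 FPKM in EWSR1::FLI1low replicates 1, 2 and 3. EWSR1::FLI1low replicate 1 lay among the EWSR1::FLI1high libraries, and replicates 2 and 3 lay below them. The log2 fold change was -0.41 (SE 0.24, 95% interval -0.95 to 0.14, adjusted p = 0.272), and it was -0.65 without EWSR1::FLI1low replicate 1 (adjusted p = 0.0166) and -0.21 without EWSR1::FLI1low replicate 2 (adjusted p = 0.641).

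Among the δ2 protocadherins, PCDH18 had the highest fold change of all members and the widest spread. Its level was 7.59, 5.69 and 6.51 FPKM in EWSR1::FLI1high replicates 1, 2 and 3. In EWSR1::FLI1low it was 90.4, 10.1 and 30.6 FPKM in replicates 1, 2 and 3. All 3 EWSR1::FLI1low libraries were above the EWSR1::FLI1high libraries, although replicates 1 and 2 of that group differed more from each other than replicate 2 did from any EWSR1::FLI1high library. The log2 fold change was 2.07 (SE 0.61, 95% interval 0.68 to 3.46, adjusted p = 0.0445). It was 1.31 without EWSR1::FLI1low replicate 1 (adjusted p = 0.0434) and 2.83 without EWSR1::FLI1low replicate 2 (adjusted p = 0.00188). Without EWSR1::FLI1high replicates 1, 2 and 3 or EWSR1::FLI1low replicate 3 in turn, the adjusted p was 0.082, 0.14, 0.128 and 0.107. In EWSR1::FLI1low replicate 1, PCDH18 exceeded PCDH7.

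PCDH17 and PCDH10, δ2 protocadherins known to recruit the WAVE complex that regulates actin, were lower on average in EWSR1::FLI1low cells. PCDH17 was at 10.6, 7.27 and 10.3 FPKM in EWSR1::FLI1high and at 7.01, 2.73 and 4.45 FPKM in EWSR1::FLI1low replicates 1, 2 and 3. The PCDH17 groups did not overlap, but were separated only by the values of 7.27 and 7.01 FPKM (log2 fold change of -0.91, SE 0.28, adjusted p = 0.0512). Without EWSR1::FLI1low replicate 1 its log2 fold change was -1.19 (adjusted p = 0.00835), without EWSR1::FLI1low replicate 2 it was -0.63 (adjusted p = 0.13), and in the other fits without 1 library the adjusted p was 0.082 to 0.164. PCDH10 was at 7.95, 7.85 and 8.62 FPKM in EWSR1::FLI1high and at 8.26, 2.47 and 5.85 FPKM in EWSR1::FLI1low replicates 1, 2 and 3, with overlapping groups (log2 fold change of -0.60, SE 0.32, adjusted p = 0.223). Its log2 fold change was -0.91 without EWSR1::FLI1low replicate 1 (adjusted p = 0.0435) and -0.20 without EWSR1::FLI1low replicate 2 (adjusted p = 0.59).

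The remaining δ2 genes were weakly expressed. PCDH19, an X-linked gene mutated in a form of epilepsy, was at 0.283 to 0.381 FPKM in EWSR1::FLI1high and at 0.487 to 1.22 FPKM in EWSR1::FLI1low libraries (log2 fold change of 0.38, adjusted p = 0.221). PCDH8, known as arcadlin and induced by neuronal activity, was below the limit for testing. It was at 0.381, 0.439 and 0.387 FPKM in EWSR1::FLI1high and at 0.0843, 0.0914 and 0.0962 FPKM in EWSR1::FLI1low replicates 1, 2 and 3. The reads behind these values numbered 16, 14 and 12 against 3, 3 and 6. The PCDH8 groups did not overlap, and in a fit without a filter on low values the log2 fold change was -0.36 (adjusted p = 0.0436).

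Of the other non-clustered genes, PCDH20 varied most in EWSR1::FLI1low cells. It was at 1.36, 0.788 and 1.41 FPKM in EWSR1::FLI1high and at 7.39, 0.791 and 3.22 FPKM in EWSR1::FLI1low replicates 1, 2 and 3 (log2 fold change of 0.88, SE 0.46, adjusted p = 0.217). The estimate was 0.35 without EWSR1::FLI1low replicate 1 (adjusted p = 0.494) and 1.46 without EWSR1::FLI1low replicate 2 (adjusted p = 0.012). Its order over the EWSR1::FLI1low libraries, with replicate 1 highest and replicate 2 lowest, was the same as that of PCDH18, PCDH17, PCDH10, PCDH7 and PCDH11X. PCDH12, an endothelial protocadherin, was at 0.381 to 1.35 FPKM, and PCDH15, a component of the tip links of hair cells, at 0.227 to 0.956 FPKM over the 6 libraries. For both, EWSR1::FLI1low replicate 1 was the highest library and EWSR1::FLI1low replicate 3 the lowest, so that the spread within that group covered the whole range.

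**Figure D2:**
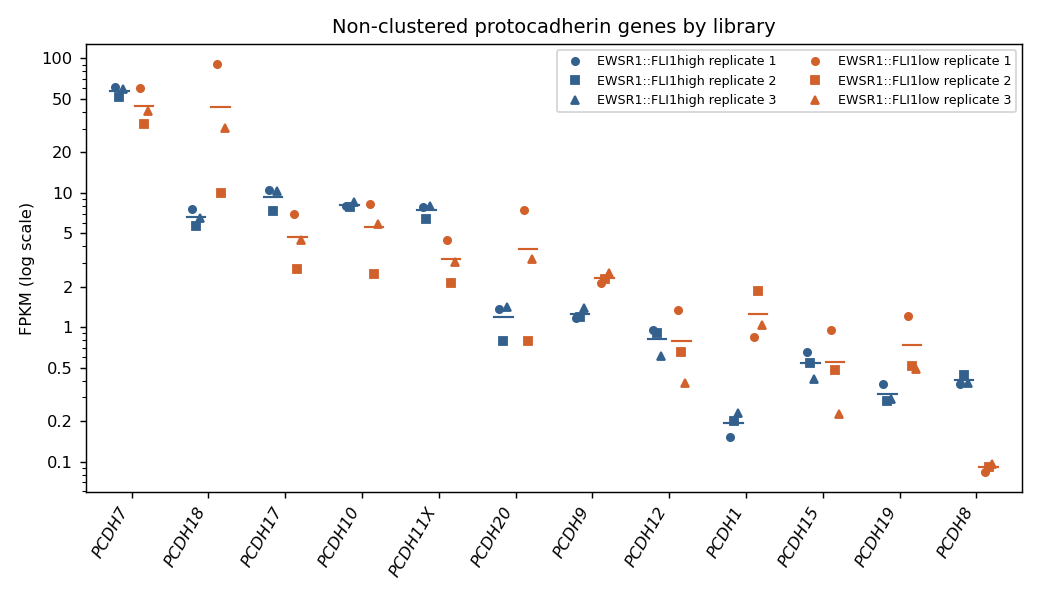
FPKM (log scale, vertical axis) of 12 non-clustered protocadherin genes in the 6 libraries, with a short line at the mean of each group of 3. PCDH18 and PCDH1 are higher in every EWSR1::FLI1low library, PCDH11X, PCDH17 and PCDH8 are lower, and the EWSR1::FLI1low libraries are spread more widely than the EWSR1::FLI1high libraries in PCDH18, PCDH10 and PCDH20.

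In the α cluster, A673 cells used a few members under both conditions. PCDHA6, PCDHA11 and PCDHA10 together held 67.1% to 73.6% of the α reads in each library, and PCDHA6 was the highest in all 6 libraries. PCDHA6 was at 5.0, 5.32 and 5.02 FPKM in EWSR1::FLI1high and at 5.84, 4.70 and 6.07 FPKM in EWSR1::FLI1low replicates 1, 2 and 3, with overlapping groups (log2 fold change of 0.09, 95% interval -0.28 to 0.46). PCDHA11 was at 3.79 to 4.4 FPKM in EWSR1::FLI1high and at 3.97 to 4.72 FPKM in EWSR1::FLI1low libraries, which also overlapped.

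PCDHA10 was at 2.58, 3.20 and 3.57 FPKM in EWSR1::FLI1high and at 4.36, 4.56 and 3.99 FPKM in EWSR1::FLI1low replicates 1, 2 and 3. Its groups did not overlap, with a log2 fold change of 0.37 (SE 0.16, adjusted p = 0.144). It followed PCDHA11 in the order of levels in all 3 EWSR1::FLI1high libraries and preceded it in EWSR1::FLI1low replicates 2 and 3. At the other end, 7 α members had a mean under 0.5 FPKM, and PCDHA4 was represented by 3 reads in EWSR1::FLI1high replicate 3, where PCDHA11 had 237. The C-type members PCDHAC1 and PCDHAC2 had means of 0.958 and 0.413 FPKM in EWSR1::FLI1high and of 1.21 and 0.601 FPKM in EWSR1::FLI1low cells.

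The β cluster held the most abundant clustered members. PCDHB2, PCDHB5 and PCDHB16 took 46.6% to 63.4% of the β reads. PCDHB2 was at 15.6, 14.2 and 16.8 FPKM in EWSR1::FLI1high and at 21.2, 25.0 and 27.6 FPKM in EWSR1::FLI1low replicates 1, 2 and 3. The PCDHB2 groups did not overlap, and the log2 fold change was 0.63 (SE 0.18, adjusted p = 0.0408). The adjusted p was 0.00796 without EWSR1::FLI1low replicate 1 and 0.0624 to 0.172 in the other 5 fits without 1 library.

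PCDHB5, whose promoter stretch holds the same motif as that of PCDHB2, was at 16.6, 15.7 and 20.4 FPKM in EWSR1::FLI1high and at 15.8, 14.8 and 20.9 FPKM in EWSR1::FLI1low replicates 1, 2 and 3. Its groups covered the same range (log2 fold change of -0.04, 95% interval -0.49 to 0.42). The order of the pair therefore differed between the conditions. PCDHB5 was the highest β member in all 3 EWSR1::FLI1high libraries, and PCDHB2 was the highest in all 3 EWSR1::FLI1low libraries. Within a library, the ratio of PCDHB2 to PCDHB5, which does not depend on scaling between libraries, was 0.938, 0.904 and 0.825 in EWSR1::FLI1high and 1.34, 1.69 and 1.32 in EWSR1::FLI1low replicates 1, 2 and 3. This pair was chosen after its values were seen, and the ratio is given without a test.

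PCDHB11 was at 4.6, 4.49 and 5.21 FPKM in EWSR1::FLI1high and at 7.74, 4.73 and 5.65 FPKM in EWSR1::FLI1low replicates 1, 2 and 3, and had the next highest mean after PCDHB2 and PCDHB5, close to that of PCDHB16. Its groups overlapped (log2 fold change of 0.27, adjusted p = 0.366). PCDHB16 had a lower mean in EWSR1::FLI1low cells, 4.93 ± 1.16 FPKM (SD, n = 3) against 5.84 ± 0.170 FPKM, with overlapping groups (log2 fold change of -0.22, adjusted p = 0.427). PCDHB3, PCDHB13 and PCDHB14 had, like PCDHB2, every EWSR1::FLI1low library above the EWSR1::FLI1high libraries. These were 4 of 18 tested β members (22.2%), against 17.5% of all genes tested. PCDHB14 went from 3.34 ± 0.390 to 4.68 ± 0.622 FPKM (SD, n = 3, adjusted p = 0.136). The adjusted p was 0.163 for PCDHB3 and 0.316 for PCDHB13. The pseudogenes PCDHB17P, PCDHB18P and PCDHB19P lay between 0.281 and 1.41 FPKM and had overlapping groups. PCDHB1, which lies apart from the rest of the cluster and lacked the β motif, was the lowest β member in 5 of 6 libraries, with 4 to 24 reads per library.

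**Figure D3:**
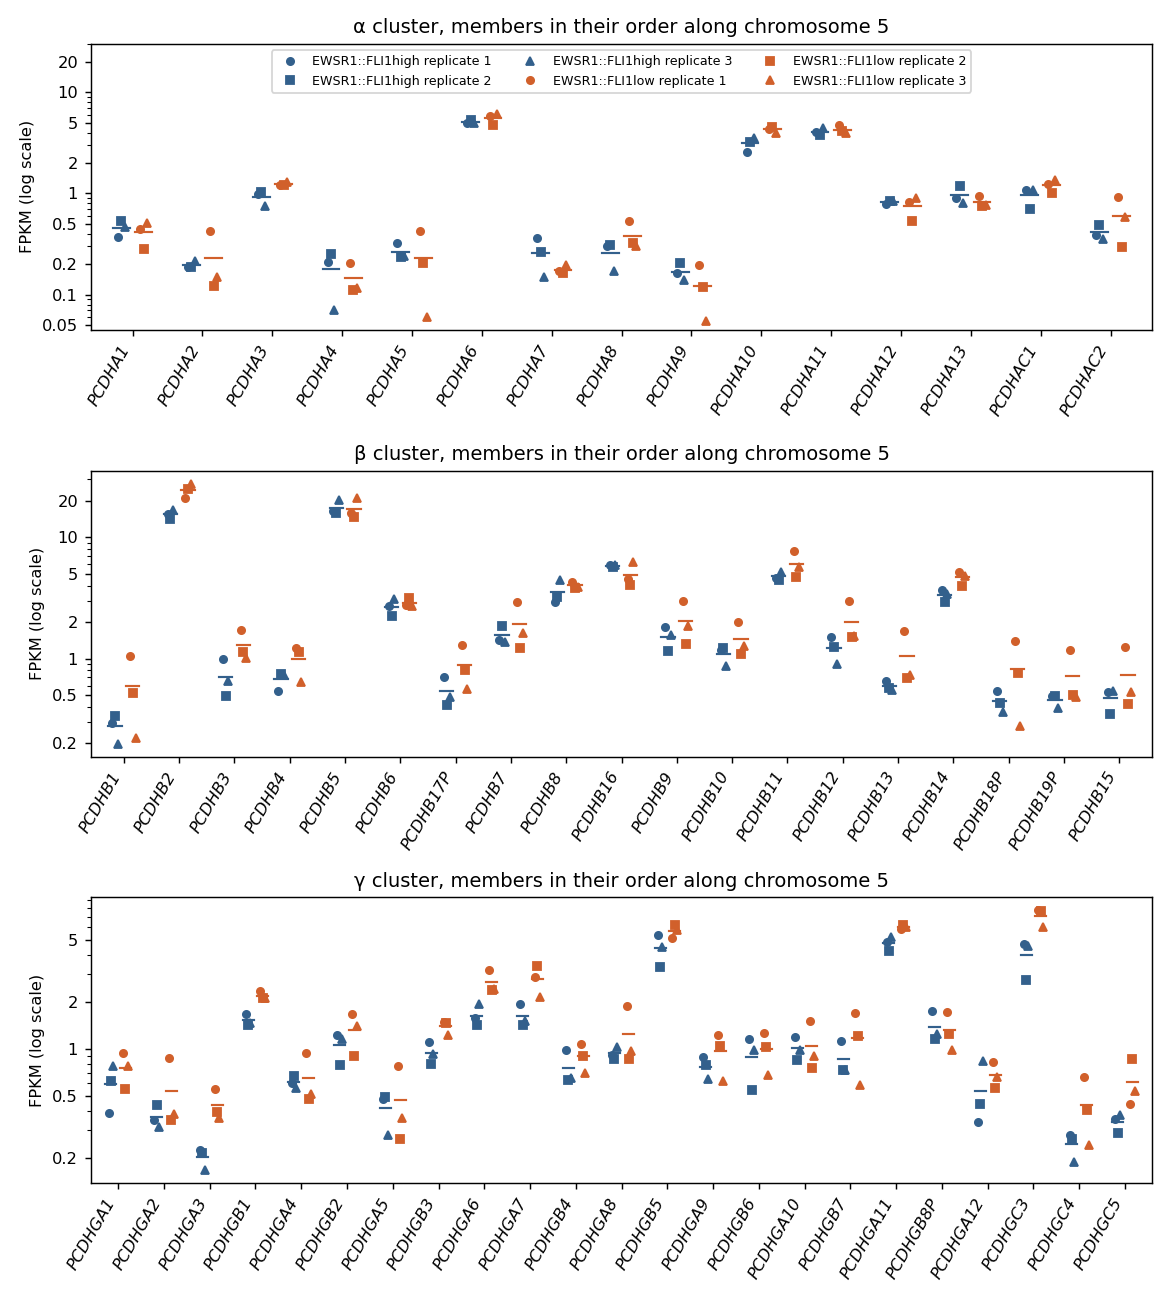
FPKM (log scale, vertical axis) of the α, β and γ members in their order along chromosome 5 (horizontal axis) in the 6 libraries, with a short line at the mean of each group of 3. The same few members lead each cluster under both conditions, and EWSR1::FLI1low replicate 1 (circles) is often the highest library among the weakly expressed β and γ members.

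In the γ cluster, PCDHGA11, PCDHGC3 and PCDHGB5 led, with 41.8% to 50.8% of the γ reads. PCDHGC3, a C-type isoform whose tail is known to bind the Wnt pathway scaffold AXIN1, was at 4.66, 2.75 and 4.52 FPKM in EWSR1::FLI1high and at 7.69, 7.60 and 6.04 FPKM in EWSR1::FLI1low replicates 1, 2 and 3. The PCDHGC3 groups did not overlap, and the log2 fold change was 0.72 (SE 0.21, 95% interval 0.26 to 1.19, adjusted p = 0.0388). In fits without 1 library the adjusted p was 0.0446 to 0.156, with 0.0593 without EWSR1::FLI1low replicate 1. PCDHGC3 was the highest γ member in all 3 EWSR1::FLI1low libraries and in none of the EWSR1::FLI1high libraries. The ratio of PCDHGC3 to PCDHGA11 was 0.962, 0.649 and 0.870 in EWSR1::FLI1high and 1.31, 1.23 and 1.00 in EWSR1::FLI1low replicates 1, 2 and 3, again a pair chosen after its values were seen.

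PCDHGA11 was at 4.24 to 5.19 FPKM in EWSR1::FLI1high and at 5.86 to 6.17 FPKM in EWSR1::FLI1low libraries, without overlap (log2 fold change of 0.29, adjusted p = 0.224). PCDHGB5 had means of 4.4 ± 1.03 and 5.67 ± 0.533 FPKM (SD, n = 3) with overlapping groups. The groups also did not overlap for PCDHGB1, PCDHGB3, PCDHGA6 and PCDHGA7, in each case with higher values in EWSR1::FLI1low cells. Together with PCDHGC3 and PCDHGA11, these were 6 of 18 tested γ members (33.3%), against 17.5% of all genes tested. Of these, PCDHGA7 was at 1.92, 1.41 and 1.5 FPKM in EWSR1::FLI1high and at 2.87, 3.37 and 2.14 FPKM in EWSR1::FLI1low replicates 1, 2 and 3 (log2 fold change of 0.53, adjusted p = 0.0709). PCDHGA1, the first gene of the cluster, was at 0.389, 0.620 and 0.777 FPKM and at 0.943, 0.550 and 0.772 FPKM in the same order, with overlapping groups (log2 fold change of 0.14, adjusted p = 0.628). PCDHGC4 and PCDHGC5, the other C-type γ members, were under 1 FPKM in every library. At this depth, PCDHGC5 rested on few reads, with 0.286 to 0.375 FPKM in EWSR1::FLI1high and 0.443 to 0.860 FPKM in EWSR1::FLI1low libraries.

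Summed over members, normalised reads (read counts divided by the size factor of the library) differed most in the γ cluster. The γ total was 1470, 1115 and 1377 in EWSR1::FLI1high and 2081, 1843 and 1631 in EWSR1::FLI1low replicates 1, 2 and 3, without overlap and with a ratio of means of 1.40. The β total was 1891 ± 142 against 2347 ± 237 (SD, n = 3), a ratio of 1.24. The β groups did not overlap, but their nearest values were 2028.5 in EWSR1::FLI1high replicate 3 and 2076.6 in EWSR1::FLI1low replicate 2. The α total was 996 ± 22.6 against 1115 ± 108 (SD, n = 3), without overlap but with only 1012 and 1013 normalised reads separating the groups, a ratio of 1.12. Without EWSR1::FLI1low replicate 1 the ratios were 1.31 for γ, 1.2 for β and 1.06 for α. The totals are sums over the members and were not tested.

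**Figure D4:**
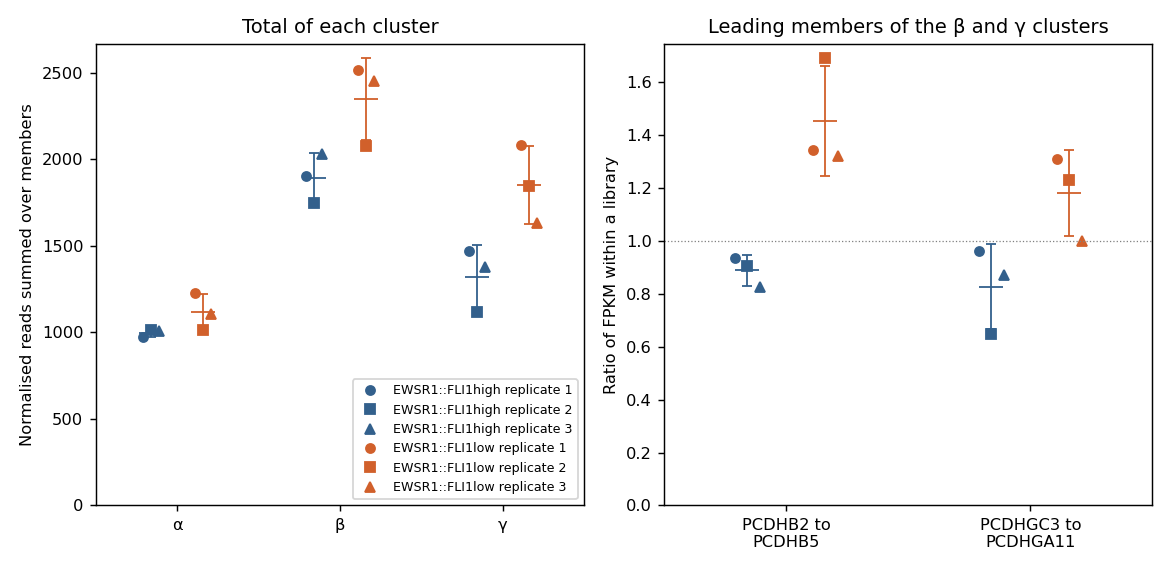
Left, normalised reads summed over the members of each cluster; right, ratios of FPKM of 2 members within a library. Points are libraries, and horizontal marks with bars are the mean and SD of 3. The γ totals of EWSR1::FLI1low libraries (1631 to 2081) lie above those of EWSR1::FLI1high libraries (1115 to 1470), and the ratio of PCDHB2 to PCDHB5 is under 1 in every EWSR1::FLI1high library and over 1 in every EWSR1::FLI1low library.

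How reads were assigned bears on the levels in the α and γ clusters. In the GENCODE v44 annotation lifted to GRCh37, stretches of 59, 89 and 2721 bases on chromosome 5 (chr5:140358534-140358592, chr5:140362060-140362148 and chr5:140389212-140391932) are exonic in at least 10 α members. In the γ cluster these stretches have 59, 89 and 2029 bases (chr5:140874374-140874432, chr5:140884960-140885048 and chr5:140890514-140892542). The gene lengths recovered from the deposited values were 5236 bases for PCDHA7 and 4614 bases for PCDHGB1, and thus included the shared exons. The 3 reads of PCDHA4 beside the 237 of PCDHA11 in EWSR1::FLI1high replicate 3 show that reads in shared exons were not counted once for each member. Deposited FPKM values are therefore low for the α and γ members relative to the β members, which have no shared exons. Per base of its own exons, PCDHA6 had 10.8 in EWSR1::FLI1high and 11.7 in EWSR1::FLI1low cells, in place of 5.12 and 5.54 FPKM. The ratio of a member's FPKM between libraries does not depend on this length.

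The regulators and partners of protocadherins were described by lists. Of 15 genes known to act on the promoters of the clusters (CTCF, cohesin and its loaders, DNA methyltransferases and other silencers), all were tested. None passed an adjusted p of 0.01, while 7.88% of all genes tested did. Their estimates were below 0 for 13 and above 0 for 2, whereas 45.2% of all genes tested were above 0. The median log2 fold change of the list was -0.32 against -0.05 for all genes. At a mean of at least 1 FPKM, a level that all 15 reached, 5196 of 12578 genes were above 0 and the median was -0.11. A share matched more closely for level was not computed. DNMT1, the maintenance DNA methyltransferase, was at 70.1 ± 12.7 FPKM in EWSR1::FLI1high and at 34.2 ± 7.70 FPKM in EWSR1::FLI1low cells (SD, n = 3, log2 fold change of -1.02, adjusted p = 0.0158). SMC1A, a core subunit of cohesin, was at 44 ± 6.80 and 21.8 ± 5.53 FPKM (SD, n = 3, log2 fold change of -1.0, adjusted p = 0.0182). The cohesin subunits of highest level, SMC3 and STAG2, had log2 fold changes of -0.57 (adjusted p = 0.0875) and -0.62 (adjusted p = 0.0446). CTCF, which marks the active promoters, was at 37.2 ± 5.75 and 26.7 ± 5.41 FPKM (SD, n = 3, adjusted p = 0.159).

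Of 20 partners and processing enzymes, CDH2 alone passed the test, while 7.88% of all genes tested did. CDH2 encodes N-cadherin, which PCDH8 is known to draw from the cell surface. It rose from 17.6, 16.3 and 17.1 FPKM in EWSR1::FLI1high to 85.3, 117.6 and 111.6 FPKM in EWSR1::FLI1low replicates 1, 2 and 3 (log2 fold change of 2.54, SE 0.19, adjusted p = 9.53e-05). The list as a whole had 8 estimates above 0 and 12 below, with a median of -0.03. Its members of highest level, SET, which binds a form of PCDH7, and NCKAP1, the partner of PCDH10 in the WAVE complex, had log2 fold changes of -0.66 (adjusted p = 0.0309) and -0.37 (adjusted p = 0.196).

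Of 12 genes beside or between the clusters on chromosome 5, 9 were tested and none passed, while 7.88% of all genes tested did. Of these, 6 had an estimate above 0 and 3 below, and the median log2 fold change was 0.02. TAF7, which lies between the β and γ clusters, was at 85.6 ± 10.6 and 104 ± 23.0 FPKM (SD, n = 3), with overlapping groups. SLC25A2, in the same interval, had 3 to 9 reads per library. ZMAT2 had a log2 fold change of -0.34 (adjusted p = 0.294).

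Other large cadherins included genes that passed the test in both directions, 2 higher and 1 lower of 11 tested. Of all 15504 genes tested, 700 passed as higher and 522 as lower. The giant cadherin FAT1 rose from 36.7 ± 3.71 to 76.1 ± 13.5 FPKM (SD, n = 3, log2 fold change of 1.02, adjusted p = 0.00844). The FAT1 call was lost without the filter (adjusted p = 0.0144) and in 5 of 6 fits without 1 library, each except that without EWSR1::FLI1low replicate 1 (adjusted p up to 0.0588). FAT3 rose from 4.80 ± 0.411 to 20.1 ± 1.29 FPKM (SD, n = 3, log2 fold change of 1.87, adjusted p = 0.000208). CLSTN2, which encodes the synaptic protein calsyntenin 2, fell from 15.8 ± 5.09 to 2.12 ± 0.654 FPKM (SD, n = 3, log2 fold change of -2.41, adjusted p = 0.000403). FAT4 was at 19.3 ± 3.25 and 14.2 ± 2.39 FPKM (SD, n = 3, adjusted p = 0.184).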

How the data were processed

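RNAseq of 6 libraries (3 EWSR1::FLI1high, 3 EWSR1::FLI1low) was analysed as deposited. The authors aligned reads to GRCh37 with STAR 2.5.0b in the BaseSpace RNA-Seq Alignment workflow (Cufflinks 2.2.1, DESeq2 1.6.3) and deposited FPKM values for each gene symbol in each library, replicates not pooled. The authors also deposited the mean signal of each gene (normalized counts averaged over the 6 libraries), which was used only to recover reads. In every library, 100% of values were whole reads within 0.1, and each FPKM was the read count over the product of size factor and gene length. The log2 fold changes, their errors, test statistics, p-values and status of the authors' own comparison were not used.

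Genes with a mean of at least 0.5 FPKM (15504) were compared by limma 3.58.1 in R 4.3.3 (lmFit, eBayes with trend) on log2(FPKM + 1), EWSR1::FLI1low minus EWSR1::FLI1high, with Benjamini-Hochberg adjustment over all genes tested, and called at an adjusted p under 0.01. Adjusted p-values come from this fit unless another is named. The script was tested on simulated data. Read counts limit precision through counting error, and 3 reads were taken as the floor of detection. Replicates were compared by chi-square over their reads, per degree of freedom (4.25 to 6.27 between EWSR1::FLI1high and 20.2 to 31.5 between EWSR1::FLI1low libraries), above sampling noise in each pair. Alternatives were no filter or a mean of at least 1 FPKM, a pseudocount of 0.1, quantile normalization or median-ratio scaling, a replicate block, omission of each library in turn, eBayes without its trend, limma-voom on recovered reads, and an adjusted p under 0.05.

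The members and lists were chosen with earlier results of these data known. Named were members with an adjusted p under 0.01 or a log2 fold change beyond 1 or -1, the 3 members of highest mean in each class, PCDH7, PCDHGA1, all non-clustered genes, called genes and the 2 of highest mean in each list, SLC25A2, TAF7 and FLI1. Members with non-overlapping groups or an adjusted p under 0.05, the C-type members, PCDHA4, PCDHA7, PCDHB1, PCDHB16, the pseudogenes, DNMT1, SMC1A and CTCF were added after their values were seen. Coordinates refer to GRCh37 (GENCODE v44, lifted). Python 3.11.15, pandas 2.3.3, numpy 2.4.6 and matplotlib 3.10.9 were used.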

Additional observations from a re-analysis of the deposited data

How the results depend on the processing

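Each count below was 0 for members and 1222 for all genes with the settings of the report, and 4 for genes of the partner, regulator, neighbour and cadherin lists. For members called higher, the count was 5 at an adjusted p under 0.05, 1 with quantile normalization (PCDHB2), 1 with limma-voom (PCDH1) and 0 to 2 when 1 library was left out, with 2 (PCDH1 and PCDHB2) without EWSR1::FLI1low replicate 1 and 1 (PCDH18) without EWSR1::FLI1low replicate 2. For members called lower, it was 1 at an adjusted p under 0.05, 1 with the replicate block and 1 with limma-voom (PCDH11X in each), and 0 to 2 when 1 library was left out, with 2 (PCDH11X and PCDH17) without EWSR1::FLI1low replicate 1, where 14.0% of all genes were called. For all genes, it was 3067 at an adjusted p under 0.05, 753 without a filter, 1992 with quantile normalization, and 444 to 2178 when 1 library was left out (574, 444 and 478 without EWSR1::FLI1high replicates 1, 2 and 3, and 2178 without EWSR1::FLI1low replicate 1). For the lists, it was 10 at an adjusted p under 0.05, 9 with quantile normalization, and 3 to 8 when 1 library was left out (8 without EWSR1::FLI1low replicate 1). The causes were not tested. FAT1 lost its call without a filter and in 5 of the fits without 1 library (adjusted p up to 0.0588).

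Over all fits without 1 library, 12 of the 55 tested members had estimates on both sides of 0, and their reported log2 fold changes were at most 0.183 in size. Of the members named with their settings, these were PCDH12 (-0.27 to 0.12 when 1 library was left out, above 0 without EWSR1::FLI1high replicate 1 or EWSR1::FLI1low replicate 3), PCDH15 (-0.19 to 0.15, above 0 without EWSR1::FLI1high replicate 1 or EWSR1::FLI1low replicate 2 or 3), PCDHA11 (-0.0040 to 0.10, below 0 without EWSR1::FLI1low replicate 1) and PCDHB5 (0.078 with quantile normalization, and -0.18 to 0.067 when 1 library was left out, above 0 without EWSR1::FLI1high replicate 3 or EWSR1::FLI1low replicate 1 or 2). Same-numbered libraries correlated at 0.271, 0.0889 and 0.124 in their deviations from the group means. Libraries of different number correlated at -0.289, -0.052, -0.00783, -0.0887, -0.242 and 0.189. Whether the numbers pair the libraries was not settled, and the main fit did not pair them. With the replicate block, 1702 genes, 1 member (PCDH11X, adjusted p = 0.0052) and 6 list genes were called, and no member called higher. Depth limited the weakest members most. PCDHA4 had 3 reads in EWSR1::FLI1high replicate 3 and PCDH8 had 3, 3 and 6 in the EWSR1::FLI1low libraries. An estimate that did not pass the limit does not show that the level was equal.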
